A study of Mus musculus with 6 samples.

Results

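The Arp2/3 complex binds the side of an actin filament and starts a new filament there, so that filaments branch. It holds the actin-related proteins Arp2 and Arp3 and the subunits ARPC1 to ARPC5, and it stays inactive until a nucleation-promoting factor such as the WAVE complex engages it. Branched actin made this way pushes forward the leading edge of growth cones and migrating neurons and shapes dendritic spines. Cyfip1, the gene carried by the transgene of this study, encodes a subunit of the WAVE complex, which places Arp2/3 directly downstream of it. Mammals have alternative versions of some subunits (Arpc1a and Arpc1b, Arpc5 and Arpc5l, Actr3 and Actr3b), and complexes built with different versions are known to differ in activity.

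The 10 mouse genes of the complex were taken by name, as its known subunits and their alternative versions. In the platform's annotation 6 of them had a probe, namely Actr3, Arpc1a, Arpc1b, Arpc4, Arpc5 and Arpc5l, with 11 of the array's 25697 probes, among 16593 genes named there. Actr2, Actr3b, Arpc2 and Arpc3 were not analysed here. The tissue was frontal cortex taken at embryonic day 15 from male mice on the C57BL/6J background. In 3 embryos the genome held a Cyfip1-spanning BAC (bacterial artificial chromosome) introduced by pronuclear injection, and 3 littermates without it were the wild-type group. RNA of each embryo went onto 1 Illumina MouseRef-8 v2.0 bead array. The labels name no cell-type promoter for the transgene and do not give its copy number, its place of insertion or the number of founder lines. No probe was named Cyfip1, so the group labels were not checked against the transgene.

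All values below are the authors' log2 intensities, and a difference is always transgenic minus wild-type on that scale. Only probes brighter on average than the array's median probe were tested, which left 12848 probes, among them all 11 Arp2/3 probes. For a count over genes each gene was represented by its probe of highest mean. Median scanner intensity ranged from 130.3 to 178 between arrays, and precision is limited by having 3 arrays per group. Genes of the cortical neuron list differed in how evenly they read. Stmn2, Dcx and Bcl11b (11.43 to 12.47) were bright in all 6 embryos, and Tubb3 read 7.25 to 7.57. Tbr1 and Neurod2 varied widely between embryos. Tbr1 read 11.16, 10.66 and 9.09 in transgenic and 10.01, 7.09 and 10.55 in wild-type embryos. Neurod2 read 10.27, 10.29 and 7.71 against 8.69, 7.66 and 9.50, so that wild-type embryo 2 was lowest for both and transgenic embryo 3 was low as well. Relative to the 6-array mean the cortical neuron list (7 genes tested) stood at -0.68 in wild-type embryo 2 and -0.49 in transgenic embryo 3, against 0.00053 to 0.55 in the others. Genes of skeletal muscle and epidermis were bright in transgenic embryo 1 and, less so, in wild-type embryo 3. Midbrain and hindbrain genes were bright in wild-type embryo 2 and, far less so, in transgenic embryo 3. Relative to the 6-array mean, the muscle list stood at 2.20 in transgenic embryo 1 and 0.75 in wild-type embryo 3. It stood at -0.84 to -0.55 in the others. The midbrain and hindbrain list stood at 2.16 in wild-type embryo 2 and 0.47 in transgenic embryo 3, against -1.28 to -0.16 in the others. Of that list, En2 stood out in transgenic embryo 3, at 10.98, while Irx1 and Irx2 there lay below transgenic embryo 2. The animal numbers in the labels lie under 100 for transgenic embryo 1 and wild-type embryo 3 and over 200 for the other 4, with no stated meaning.

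Of the 6 measured subunits, Arpc1b had the largest mean difference in transgenic cortex. The other 5 had small mean differences on their probes of highest mean, with 95% intervals that included 0, the widest being -0.29 to 0.55 for Arpc4. Arpc1b was 1.71-fold higher on average (95% interval 1.05 to 2.81), while the differences of Actr3, Arpc1a, Arpc4, Arpc5 and Arpc5l ranged from -0.12 to 0.13. No subunit passed the adjusted threshold of 0.05. By limma 0 of the 12848 tested probes did (0%), the smallest adjusted p being 0.220. At an unadjusted p under 0.05 limma called 897 probes, 6.98% of those tested, and 1 of the 6 subunits, Arpc1b. By direction that background was 3.47% higher and 3.51% lower. The median difference over the 6 subunits was 0.02, with 3 above 0 and 3 below, beside a median of -0.03 over all tested probes. In RNA from whole tissue a change in the number of cells of a type and a change in RNA per cell cannot be told apart.

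**Figure D1:**
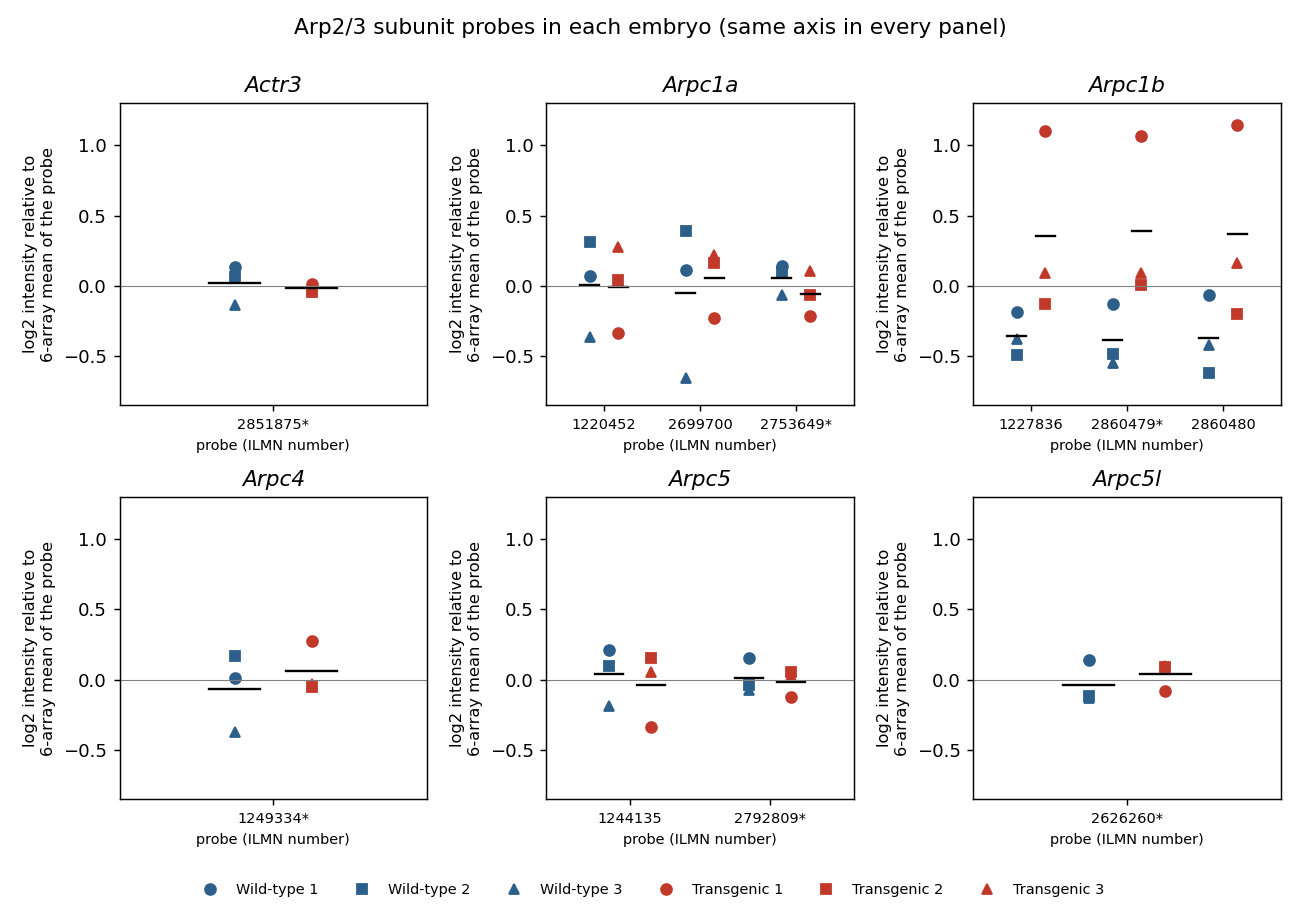
Each of the 11 Arp2/3 probes in each embryo, as log2 intensity relative to the probe's mean over the 6 arrays. Blue points are wild-type and red points transgenic embryos, the shape gives the embryo, black lines are group means, and an asterisk marks the probe of highest mean. Arpc1b in transgenic embryo 1 lies 1.07 to 1.15 above the mean on all 3 probes, while Actr3, Arpc5l and the brighter Arpc5 probe stay within 0.16 of it in every embryo.

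Actr3 encodes Arp3, which with Arp2 forms the template from which the new filament grows. Its single probe read 12.50, 12.44 and 12.46 in transgenic embryos 1 to 3 and 12.62, 12.55 and 12.35 in wild-type embryos 1 to 3 (log2 intensity). The transgenic values lay inside the wild-type range. The difference was -0.04 (SE 0.11, limma adjusted p = 0.925), with a 95% interval from -0.30 to 0.23. That interval leaves room for transgenic levels between 0.810 and 1.17 times wild-type. Actr3 was also one of the steadier probes, with a pooled SD within groups of 0.10 beside a median of 0.18 over all tested probes.

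Arpc1a and Arpc1b encode alternative versions of ARPC1, a WD-repeat subunit at which activating factors bind. Arpc1b is known as the main form in blood cells, and its loss in people causes an immune and platelet disorder. In RefSeq's gene order for the GRCm38.p6 assembly the genes are neighbours on chromosome 5, with 0 annotated genes between them. Their promoters are shown because the mean differences on the probes of highest mean were 0.78 for Arpc1b and -0.12 for Arpc1a. Neither passed the adjusted threshold, and a link to the promoters was not tested. The windows run from 250 bases before to 50 bases after the annotated start, 5′ to 3′ on the plus strand, chr5:145083619-145083918 for Arpc1a and chr5:145114006-145114305 for Arpc1b (RefSeq, GRCm38.p6). Capitals mark matches to motifs of the ETS transcription factor family.
Arpc1a: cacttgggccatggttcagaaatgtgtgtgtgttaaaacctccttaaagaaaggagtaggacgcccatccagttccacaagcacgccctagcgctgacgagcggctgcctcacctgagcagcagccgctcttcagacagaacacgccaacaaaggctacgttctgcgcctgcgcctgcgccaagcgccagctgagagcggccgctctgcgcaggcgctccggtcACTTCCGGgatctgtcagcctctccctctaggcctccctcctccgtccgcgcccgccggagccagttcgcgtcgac
Arpc1b: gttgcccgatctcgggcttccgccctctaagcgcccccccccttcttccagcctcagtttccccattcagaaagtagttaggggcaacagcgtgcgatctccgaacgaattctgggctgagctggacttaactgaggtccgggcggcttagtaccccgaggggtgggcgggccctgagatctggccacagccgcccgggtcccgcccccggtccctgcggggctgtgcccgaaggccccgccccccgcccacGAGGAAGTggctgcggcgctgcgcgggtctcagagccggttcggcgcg

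The letters searched, on both strands, were GAGGAAGT, a form preferred by the myeloid and lymphoid factor PU.1, CCGGAAGT, a form common to many ETS factors, and the GC box GGGCGG. The choice of CCGGAAGT was made after the sequences had been seen, and none of the matches in capitals overlaps another motif. The Arpc1b window held GAGGAAGT, which begins 2 bases downstream of the annotated start base, and no CCGGAAGT. The Arpc1a window held CCGGAAGT on the minus strand, printed above as its reverse complement ACTTCCGG, at -26 relative to the start base, and no GAGGAAGT. Promoter windows were at hand for 8 of the 10 subunit genes. CCGGAAGT occurred in 5 of them (Actr2, Actr3, Arpc1a, Arpc3 and Arpc4) and GAGGAAGT only in that of Arpc1b. Of all 32851 promoter windows 3.89% held CCGGAAGT and 3.2% held GAGGAAGT. GGGCGG was in 6 of the 8 and in 35.7% of all windows, with 7 matches in the Arpc1b window and 0 in that of Arpc1a. A match describes these letters and does not show that a factor binds there.

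Arpc1b was higher in transgenic cortex on each of its 3 probes, and the size of the difference was set largely by transgenic embryo 1. On the probe of highest mean, ILMN_2860479, Arpc1b read 10.10, 9.04 and 9.12 in transgenic embryos 1 to 3 and 8.90, 8.55 and 8.49 in wild-type embryos 1 to 3. Transgenic embryo 1 lay far above all others, and the lowest transgenic value exceeded the highest wild-type value by 0.14. The groups did not overlap, which was true of 14.2% of all tested probes and, with transgenic values above, of 5.94% (8.25% with transgenic values below). The means were 9.42 ± 0.59 and 8.65 ± 0.23 (SD, n = 3 each), a difference of 0.78 (SE 0.30, limma unadjusted p = 0.0366, adjusted p = 0.675). In size this difference exceeded that of 97.3% of tested probes, and its pooled SD of 0.45 exceeded that of 89.5%.

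The other Arpc1b probes gave nearly the same difference. ILMN_1227836 read 9.36, 8.14 and 8.36 in transgenic and 8.08, 7.77 and 7.89 in wild-type embryos, again without overlap, and differed by 0.71 (SE 0.32). ILMN_2860480 read 9.87, 8.53 and 8.89 against 8.66, 8.11 and 8.30. On that probe transgenic embryo 2 fell below wild-type embryo 1, and the difference was 0.74 (SE 0.35). Both had a limma adjusted p of 0.675. In scanner intensity, before any normalization, ILMN_2860479 stood at 956, 641 and 700 in transgenic and 447, 361 and 297 in wild-type embryos. Scanner intensity also carries the brightness of each array as a whole, so this order alone does not settle the part of normalization. All transgenic values also lay above all wild-type values under median scaling (difference 0.86) and cyclic loess (0.81). The same held for normexp background correction with quantile normalization (0.84).

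Leaving out transgenic embryo 1 lowered the Arpc1b difference to 0.44 (limma unadjusted p = 0.0330, adjusted p = 0.980, with adjusted p from 0.295 to 0.992 over the alternatives), and leaving it out together with wild-type embryo 2 lowered it to 0.39 (unadjusted p = 0.0884). The unadjusted p was 0.0934 without wild-type embryo 2 and 0.102 without wild-type embryo 3. Within the pair of animals numbered under 100 the difference was 1.62, and among the 4 numbered over 200 it was 0.36. Array weights, which give arrays with larger residuals less influence, put the difference at 0.53.

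**Figure D2:**
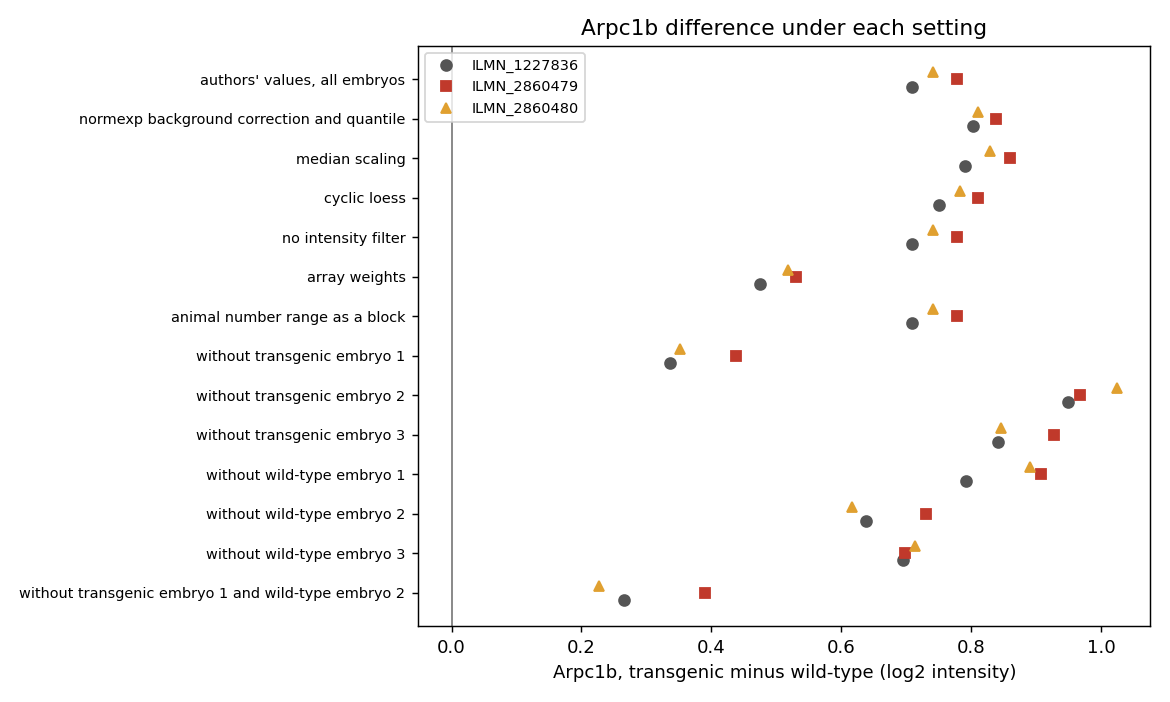
The Arpc1b difference (transgenic minus wild-type, log2 intensity, horizontal axis) of its 3 probes under each processing setting and with embryos left out. Every value lies above 0, from 0.23 to 1.02, and the smallest ones are those without transgenic embryo 1.

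Marker lists of several other cell types also had medians above 0, and their part in the Arpc1b difference was not tested. The meningeal and fibroblast list had the order of embryos seen for Arpc1b on ILMN_2860479. Relative to the 6-array mean, that list stood at 1.75, 0.089 and 0.30 in transgenic and 0.068, -1.10 and -1.11 in wild-type embryos. Arpc1b stood at 1.07, 0.0088 and 0.089 in transgenic and -0.13, -0.49 and -0.55 in wild-type embryos. Other lists did not all have that order. Wild-type embryo 3, lowest on ILMN_2860479 at -0.55 relative to the 6-array mean, stood at 0.75 for muscle, 0.33 for epidermal and 0.36 for choroid plexus genes. Of the microglia and macrophage list, 12 of 12 tested genes were above 0 (median 0.55), with 7 not overlapping between groups. Over all tested probes 43.8% were above 0, and 5.94% did not overlap with transgenic values above. The summed linear intensity of all genes of the list with a probe, dim ones included, ran from 6156 to 6736.5 in transgenic and from 3422 to 5400 in wild-type embryos. Sums of the lists below were formed the same way. Ptprc and P2ry12 were too dim to test, and Csf1r and Cd68 were not analysed here. Transgenic embryo 1, highest by far for Arpc1b, was the lowest transgenic embryo for this list, at 0.20 relative to the 6-array mean against 0.36 and 0.29 in transgenic embryos 2 and 3. Of the meningeal and fibroblast list, 9 of 9 were above 0 and 3 did not overlap (median 1.71), with sums of 24719 to 49732 and 10072.5 to 25032, and the mean of 1.75 in transgenic embryo 1 was the highest of the 6. That median was 0.72 without transgenic embryo 1 and 0.49 without it and wild-type embryo 2, while the microglia and macrophage median was 0.61 and 0.52. Endothelial genes were above 0 in 8 of 8 and did not overlap in 3 (median 0.58), with sums of 5608 to 8128 and 3826 to 5771. Relative to the 6-array mean, transgenic embryos 1 to 3 stood at 0.50, -0.03 and 0.41 for the endothelial list. Wild-type embryos 1 to 3 stood at 0.06, -0.45 and -0.49. Skeletal muscle genes were above 0 in 8 of 9 (sums 1389 to 20380 and 1561 to 5668) and epidermal genes in 2 of 4 (2765 to 7311 and 2766 to 3373), and 0 of either list had transgenic values all above. Without transgenic embryo 1 their medians turned from 0.48 to -0.79 and from 0.31 to -0.48. Choroid plexus genes had the largest median of these lists, 2.08, with 5 of 5 above 0, 3 not overlapping and 3 at an unadjusted p under 0.05 (limma), and sums of 3946 to 28754 and 833 to 12806. Transgenic embryo 3 was highest for that list, at 1.93 relative to the 6-array mean. At an unadjusted p under 0.05 (limma), 7 microglia and macrophage, 6 meningeal and fibroblast and 4 endothelial genes were also higher. For muscle and epidermal genes that count was 0, and 3.47% of all tested probes were higher at that p. Linear sums weigh the brightest genes most, such as Igf2 of the meningeal list (12.80 to 14.64) and Ttr of the choroid plexus list (14.57 in transgenic embryo 3). Fewer markers of these lists were tested than chosen. The dim ones were Postn of the meningeal list, Kdr of the endothelial, Ckm of the muscle, Krt5, Krt1, Trp63 and Sfn of the epidermal and Kl of the choroid plexus list, while Cldn5, Myh3 and Dsp were not analysed here.

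**Figure D3:**
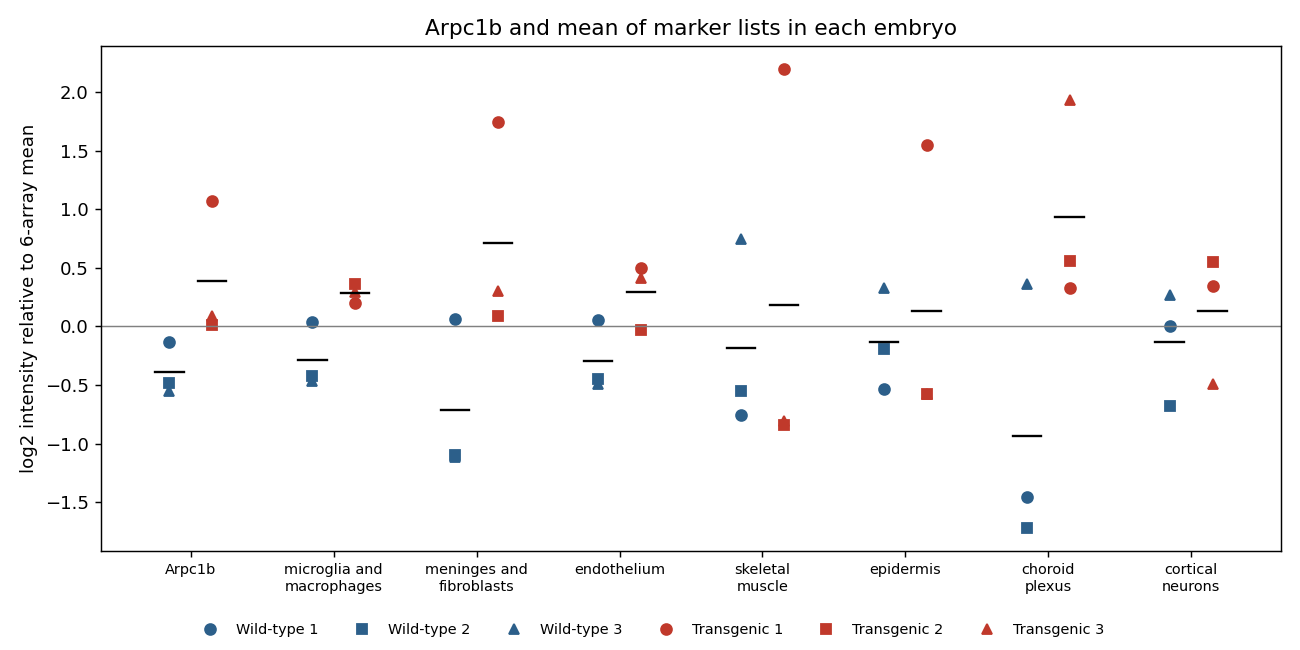
Arpc1b (probe ILMN_2860479) and the mean of tested markers of 7 cell types in each embryo, as log2 intensity relative to the 6-array mean. Blue points are wild-type and red points transgenic embryos, and black lines are group means. Transgenic embryo 1 is highest for Arpc1b (1.07) and for meningeal (1.75), endothelial (0.50), muscle (2.20) and epidermal (1.55) genes. It is not highest for microglia and macrophage (0.20), choroid plexus (0.33) or cortical neuron (0.34) genes.

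The 5 genes whose 6 values were most like those of Arpc1b were Crtap, Ctsk, Chmp4b, Gstm2 and Vkorc1, chosen by Pearson's r with ILMN_2860479 across the 6 arrays among tested probes with a gene name. Their r ran from 0.996 to 0.997, above the 0.985 and 0.977 of Arpc1b's own further probes, and without transgenic embryo 1 it ran from 0.986 to 0.990. Crtap, a partner of collagen prolyl hydroxylation, read 10.67, 8.89 and 9.05 in transgenic and 8.72, 8.12 and 8.19 in wild-type embryos. Ctsk, the collagen-degrading protease cathepsin K, read 10.77, 8.80 and 8.78 against 8.53, 7.81 and 7.52. Smaller differences were seen for the membrane-scission protein gene Chmp4b by 0.24, the glutathione transferase gene Gstm2 by 0.69 and the vitamin K reductase gene Vkorc1 by 0.66. The points share transgenic embryo 1 and were picked from 12848 probes, so these r are a description only.

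Arpc1a showed no difference that its probes shared. The probe of highest mean, ILMN_2753649, read 12.12, 12.27 and 12.44 in transgenic and 12.48, 12.43 and 12.27 in wild-type embryos, a difference of -0.12 (SE 0.13, limma adjusted p = 0.776). Its groups overlapped, and its 95% interval ran from -0.42 to 0.18. ILMN_1220452 differed by -0.01 (SE 0.23) and ILMN_2699700 by 0.11 (SE 0.28), so the sign was not shared. On ILMN_2699700 the lowest values were 10.66 in transgenic embryo 1 and 10.23 in wild-type embryo 3, with 10.99 to 11.27 elsewhere. On ILMN_1220452 the same embryos were lowest, at 11.03 and 11.00, with 11.41 to 11.68 elsewhere. These are the animals numbered under 100, 1 of each genotype.

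Arpc4 encodes a core subunit that, with ARPC2, holds the complex on the mother filament. It read 10.82, 10.49 and 10.51 in transgenic and 10.55, 10.71 and 10.17 in wild-type embryos. Transgenic embryo 1 was the highest and wild-type embryo 3 the lowest of the 6, and the groups overlapped. The difference was 0.13 (SE 0.18, limma adjusted p = 0.824, 95% interval -0.29 to 0.55). Among the 4 animals numbered over 200 it was -0.13, and in the pair numbered under 100 it was 0.65. With array weights it was -0.04, so its sign depended on the setting.

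Arpc5 and Arpc5l encode alternative versions of ARPC5, a small subunit that links ARPC1 to the rest of the complex. The probe of highest mean for Arpc5, ILMN_2792809, read 13.32, 13.50 and 13.47 in transgenic and 13.60, 13.41 and 13.37 in wild-type embryos. The difference was -0.03 (SE 0.11, limma adjusted p = 0.940, 95% interval -0.31 to 0.24). ILMN_1244135 differed by -0.08 (SE 0.17), with its lowest values, 8.73 and 8.88, in the same embryos numbered under 100 and 9.12 to 9.28 elsewhere. Arpc5l read 9.50, 9.67 and 9.68 in transgenic and 9.72, 9.46 and 9.45 in wild-type embryos, a difference of 0.08 (SE 0.12, limma adjusted p = 0.854, 95% interval -0.22 to 0.37). Wild-type embryo 1 was the highest of the 6 for Arpc5l and for the brighter Arpc5 probe alike.

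**Figure D4:**
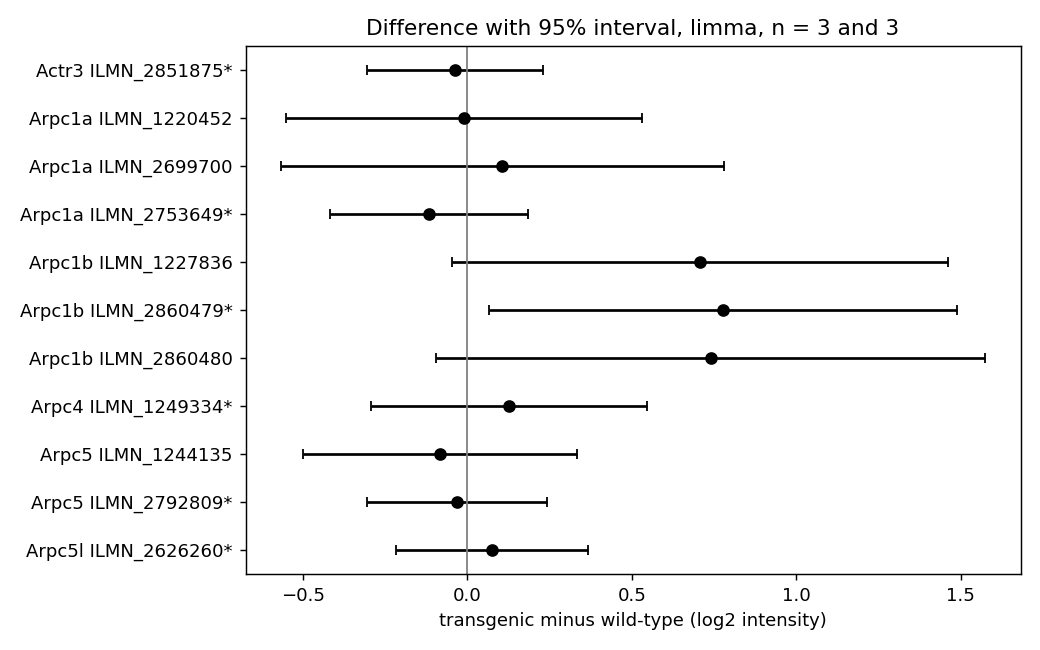
Difference between transgenic and wild-type embryos (log2 intensity, horizontal axis) for each Arp2/3 probe, with its 95% interval from limma (n = 3 each). An asterisk marks the probe of highest mean of a gene. The 3 Arpc1b probes lie at 0.71 to 0.78 and the others between -0.12 and 0.13, and only the interval of Arpc1b ILMN_2860479, from 0.07 to 1.49, does not include 0.

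The balance of paralogues was followed as the log2 difference between their probes of highest mean within each array, relative to its wild-type mean. In this form the unknown brightness of each probe drops out, so the values show a shift in balance and not which version is more abundant. The balance of Arpc1b over Arpc1a stood at 1.73, 0.52 and 0.43 in transgenic embryos 1 to 3 and at 0.17, -0.13 and -0.04 in wild-type embryos 1 to 3. All transgenic values lay above all wild-type values. The shift was 0.89, or 1.86-fold (SD 0.73 in transgenic and 0.16 in wild-type embryos, n = 3 each). The exact permutation test, two-sided, gave p = 0.1, the smallest that 3 embryos against 3 can give, so no threshold of 0.05 could be reached. The shift was 0.48 without transgenic embryo 1, 0.41 without it and wild-type embryo 2, 0.46 among the animals numbered over 200 and 1.77 in the pair numbered under 100. The separation of the groups depended on the probes. Of the 9 pairs of Arpc1b and Arpc1a probes, the shift ran from 0.60 to 0.89, but only the 3 pairs with Arpc1a ILMN_2753649 did not overlap.

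The balance of Arpc5l over Arpc5 differed far less. With the brighter Arpc5 probe it stood at 0.10, 0.09 and 0.13 in transgenic and 0.03, -0.03 and -0.0036 in wild-type embryos, without overlap. The shift was 0.11, or 1.08-fold (SD 0.02 and 0.03, n = 3 each), with an exact permutation p = 0.1 and, adjusted over the 2 balances, 0.1 for each. It was 0.10 in the pair numbered under 100 and 0.11 among the other 4. With the second Arpc5 probe, ILMN_1244135, the balance stood at 0.33, 0.01 and 0.13 in transgenic and 0.0013, -0.14 and 0.13 in wild-type embryos. The groups then overlapped, with a shift of 0.16 (SD 0.16 and 0.14), so the narrow spread held for 1 of the 2 Arpc5 probes. Median scaling in place of the authors' quantile normalization put the shift at 0.20. The balance of Actr3b over Actr3 was not analysed here.

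**Figure D5:**
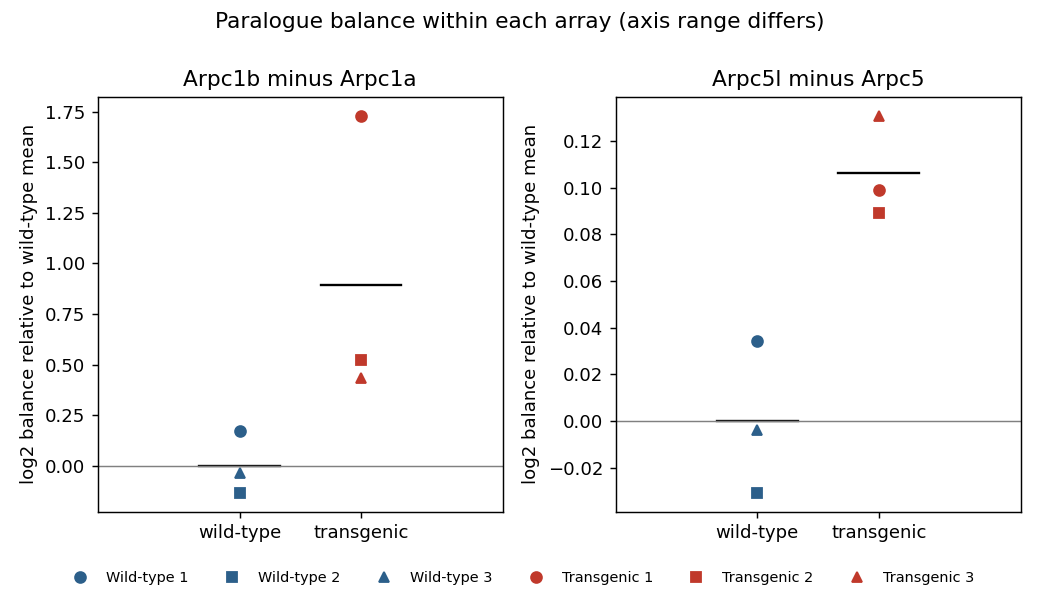
Log2 balance of Arpc1b over Arpc1a and of Arpc5l over Arpc5 in each embryo, relative to the wild-type mean, from the probe of highest mean of each gene. Blue points are wild-type and red points transgenic embryos, and black lines are group means. The transgenic embryos lie at 0.43 to 1.73 for ARPC1 and at 0.09 to 0.13 for ARPC5, and the wild-type embryos at -0.13 to 0.17 and -0.03 to 0.03.

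The factors that act on the complex were described from lists chosen by function, and in each list 0 genes passed the adjusted threshold (limma). Median scaling moved several list medians that lay near 0 to the other side, the other activators to 0.08 and actin turnover to 0.04. Of the WAVE complex, the activator that contains the Cyfip1 protein, 7 of 10 genes with a probe were tested. Of these 4 were above 0 and 3 below (median 0.04), with 1 higher at an unadjusted p under 0.05. That gene was Abi3, a subunit known from blood-derived cells, at 7.81, 7.33 and 7.73 in transgenic and 7.27, 7.14 and 7.20 in wild-type embryos, a difference of 0.42 (SE 0.15). Cyfip2, Wasf2 and Wasf3 were too dim to test.

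Of the other activators and their partners, 10 of 14 with a probe were tested, 5 above 0 and 5 below, with a median of -0.0025. The gene past an unadjusted p of 0.05 was Wipf2, a partner of WASP-family proteins, which was lower. It read 9.24, 9.39 and 9.40 in transgenic and 9.75, 9.66 and 9.73 in wild-type embryos. All transgenic values lay below all wild-type values, and the difference of -0.36 (SE 0.10, limma unadjusted p = 0.00969, adjusted p = 0.675) ranged from -0.39 to -0.28 under every alternative tried. Transgenic embryo 1 was the lowest of the 6 for Wipf2, but it stood apart by far less than for Arpc1b. Wipf1, a relative of Wipf2 named after its value was seen, differed the other way by 0.67 (SE 0.30). It read 9.39 in transgenic embryo 1 against 7.77 to 8.59 in the others.

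Of the inhibitors and debranching factors, 8 of 9 were tested, 4 above 0 and 4 below (median -0.02). Gmfg, a haematopoietic debranching factor that binds Arp2/3, differed by 0.42 (SE 0.14, limma unadjusted p = 0.0225, adjusted p = 0.675). It read 7.62, 7.71 and 7.72 in transgenic and 7.54, 7.17 and 7.11 in wild-type embryos. A second tested Gmfg probe differed by 0.43 (SE 0.13), likewise without overlap. Its paralogue Gmfb, which the nervous system expresses, differed by 0.02 (SE 0.14). Arpin, an inhibitor that competes with activators for the complex, was too dim to test, at 6.79 to 7.06 in the 6 embryos.

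Of actin and its turnover factors 12 of 14 were tested, 5 above 0 and 7 below (median -0.04). Pfn1, which delivers actin monomers to growing ends, differed by 0.40 (SE 0.15, limma unadjusted p = 0.0352) with no overlap between groups, but its second probe overlapped, at 0.35 (SE 0.21). Pfn2, the neuronal profilin, differed by -0.18 (SE 0.12) on its brightest probe, where all transgenic values lay below, and overlapped on its other probes. Probes of Actb, the cytoplasmic actin gene, gave -0.04 (SE 0.15), 0.10 (SE 0.26) and -0.56 (SE 0.41), and its other probes were too dim.

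Of the nucleators of unbranched actin 6 of 9 tested genes lay below 0 (median -0.18), 1 of them at an unadjusted p under 0.05. Fmn2, a formin of the nervous system and oocyte, read 8.39, 8.68 and 9.05 in transgenic and 9.14, 9.45 and 9.10 in wild-type embryos. Its groups did not overlap, and the difference was -0.52 (SE 0.20, limma unadjusted p = 0.0334, adjusted p = 0.675), with -0.54 (SE 0.22) on the second probe. It was -0.25 without transgenic embryo 1 and wild-type embryo 2. The actin-related proteins outside the complex, which serve dynactin and chromatin remodelling, lay below 0 in 4 of 5 tested genes (median -0.13) with 0 past an unadjusted p of 0.05, and their median was 0.03 without transgenic embryo 1 and wild-type embryo 2. The largest difference was that of Actl6b, a neuronal chromatin-remodelling subunit, at -0.30 (SE 0.29). Its lowest values were in the embryos numbered under 100, 11.06 and 11.33 against 11.69 to 12.17.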

How the data were processed

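The deposited scanner table gives 1 intensity per probe and array, made with BeadStudio per the submitters' processing notes, with no detection p-values in the tables used here. The authors' deposited log2 values match a quantile normalization of log2 scanner intensity with no background correction, to within 5e-09, and were the values tested. Total RNA (200 ng per array) was amplified and biotin-labelled, per the labels' protocols. Probes with a 6-array mean above the median of all probes were fitted with limma 3.58.1 in R 4.3.3 (lmFit, eBayes, two-sided, no covariate), with Benjamini-Hochberg adjustment over all 12848 tested probes and a threshold of 0.05. The fit was tested on simulated data first. Probe names come from the platform annotation, in which 23978 probes have 1 gene and 1719 have none, checked by gene identifier against RefSeq (GRCm38.p6, 23962 found). Named genes were every probe of the 10 members, in each other list the genes at an unadjusted p under 0.05 or, failing these, the gene with the largest difference, Arpin and the Actb probes, and the 5 genes most like Arpc1b. The members and lists were chosen with earlier results of these data known, and 1 list of upstream regulators is not reported here. Samples were grouped by genotype and numbered only to name them. Each is a separate animal per the labels, and all arrays share a slide. Alternatives were normexp background correction (offset 50), median scaling, cyclic loess, no intensity filter, array weights, the animal number range as a block, the mean of all probes of a gene, leaving out embryos, and, added after seeing the data, every other pair of paralogue probes.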

Additional observations from a re-analysis of the deposited data

How the results depend on the processing

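Under every alternative tried, 0 probes passed over all those tested, among the Arp2/3 probes and in the pathway lists. The 897 probes at an unadjusted p under 0.05 became 1629 with no intensity filter, 1996 when the animal number range was fitted as a block, 342 without transgenic embryo 1 and wild-type embryo 2, and 422 to 1124 with single embryos left out (548 without transgenic embryo 1, 422 without wild-type embryo 2). Median scaling turned the split at that p from 446 higher and 451 lower to 776 and 106, and cyclic loess to 540 and 338. The Arpc1b difference kept its sign on all 3 probes in 13 of 13 alternatives, from 0.23 to 1.02, as did the paralogue balances, from 0.41 to 1.13 in 20 of 20 for Arpc1b over Arpc1a and from 0.09 to 0.20 in 13 of 13 for Arpc5l over Arpc5. These include the other probe pairs, an alternative chosen after seeing the data. Counting also the pair of highest mean, which did not overlap for either balance, the groups overlapped in 6 of 9 and 1 of 2 pairs. The median over the 6 subunits ran from -0.05 to 0.10. Signs of the small differences turned, and the cause was not tested. Arpc1a ILMN_1220452 was 0.036 under median scaling, 0.011 with array weights and 0.31 without transgenic embryo 1 and wild-type embryo 2. Arpc5 ILMN_1244135 was 0.020 under median scaling and 0.092 without those 2 embryos. Array weights gave -0.037 for Arpc4, 0.0016 for Arpc5 ILMN_2792809 and -0.049 for Actb ILMN_2617433. Without those 2 embryos Actl6b was 0.10. With single embryos left out, the ranges that crossed 0 were -0.12 to 0.021 for Actr3, -0.20 to 0.16 for Arpc1a ILMN_1220452, -0.20 to 0.33 for Arpc1a ILMN_2699700, -0.027 to 0.25 for Arpc4, -0.20 to 0.064 for Arpc5 ILMN_1244135, -0.076 to 0.039 for Arpc5 ILMN_2792809, -0.17 to 0.25 for Actb ILMN_2617433 and -0.12 to 0.065 for Actb ILMN_2698799. No paired analysis was possible because the labels give no replicate numbers that pair transgenic with wild-type embryos. Dim probes sit near the array's background, so small changes in Arpin, Cyfip2, Wasf2 or Wasf3 could not be judged.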

Other observations

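Several regulators of Arp2/3 that are best known from blood-derived cells were on the lists, and their values are set together here after they had been seen, with no test of the group. Nckap1l, the haematopoietic counterpart of Nckap1, read 7.91, 7.74 and 7.85 in transgenic and 7.77, 7.37 and 7.36 in wild-type embryos, a difference of 0.33 (SE 0.14), while Nckap1 itself differed by -0.10 (SE 0.13). Wild-type embryo 1 was the highest wild-type embryo for Nckap1l, for both tested Gmfg probes and for all 3 Arpc1b probes. That was not particular to genes of blood-derived cells. Relative to the 6-array mean, it was also highest for the meningeal list, at 0.068 against -1.10 and -1.11. The same held for the endothelial list (0.06 against -0.45 and -0.49) and the microglia and macrophage list (0.04 against -0.43 and -0.46). Coro1a, a coronin of lymphocytes that developing neurons also express, differed by -0.19 to -0.06 on its 4 probes. Was and Hcls1, the haematopoietic members of their families, were too dim to test, with differences of 0.15 and 0.13. Differences of that size on dim probes were not limited to such genes. Cyfip2, likewise too dim to test, differed by 0.15, while Wasf2 and Wasf3 differed by 0.01 and -0.06.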
